A study of Mus musculus with 2 samples.

Results

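The RNA of 10 genes of the Bcl2 family was examined in mouse hematopoietic stem cells (HSCs) of 2 labelled genotypes. The genes were taken by symbol from a list of the main survival and death genes of the family, and all 10 were found among the 24421 gene symbols counted. They were 3 pro-survival genes (*Bcl2*, *Bcl2l1* and *Mcl1*), 2 effectors (*Bax* and *Bak1*) and 5 BH3-only genes (*Bcl2l11*, *Bid*, *Bad*, *Bbc3* and *Pmaip1*). RNA-seq counts came from 1 WT library (Ezh2 +/+ CreERT+/-) and 1 library labelled Ezh2 KO (Ezh2 Δ/Δ CreERT+/-), both of strain C57BL/6. Donor marrow had been transplanted into irradiated recipients, tamoxifen, the drug that switches on the Cre-ERT recombinase, had been injected on 5 days, and HSCs (CD150+CD48-CD34-Flt3- cells of the lineage-negative, Sca-1+ c-Kit+ fraction) were sorted 1 month later. Both groups therefore carried the recombinase, received tamoxifen and came from transplanted marrow. The promoter of the Cre-ERT transgene, the age of the mice and the number of animals behind each library are not given in the sources used here.

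Proteins of the Bcl2 family decide at the outer mitochondrial membrane whether a cell starts apoptosis. BH3-only proteins sense stress and bind the pro-survival members; once freed, the effectors form pores through which cytochrome c escapes and caspases are switched on. *Mcl1* encodes a short-lived protein and is known to be required for the survival of mouse HSCs.

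Counts on genes summed to 5763118 for WT and 4157280 for the library labelled Ezh2 KO, so that 3 counts corresponded to 0.521 and 0.722 CPM (counts scaled to a common library total). *Ezh2*, the targeted gene, had 166 and 129 counts, or 142.5 and 150.3 counts after normalisation by library size factors, and so did not fall at gene level. Counts summed over a whole gene cannot show whether some of its exons were lost, and single exons were not examined. The second library is accordingly named by its label. Of 13 HSC marker genes, 13 had counts in both libraries, with summed normalised counts of 24021 and 24741. Of the 3 genes whose proteins were sorted against, *Cd48* had 12 and 11 counts, *Cd34* 957 and 829 (log2 ratio 0.23, higher with no fold threshold) and *Flt3* 98 and 140 (0.95, called higher at 1.5-fold). For *Xist* WT gave 801 counts and the other library 4, whereas 4 Y-linked genes gave 0 counts for WT and from 106 to 275 for the other library, so the genotype labels and the sex of the cells cannot be told apart. No group had a replicate. Intervals below are 95% intervals of counting error only and treat each count as independent. Without molecular identifiers PCR copies of one molecule are counted separately, so the intervals can be too narrow even for counting error. Each test compares the 2 libraries, not the conditions.

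Transcript levels were compared between genes as normalised counts per kilobase (kb) of exon. *Mcl1* stood highest in both libraries, at 718 (692 to 745) for WT and 470 (446 to 496) for the library labelled Ezh2 KO, above 97.6% and 95.9% of the 12121 tested genes with a known length. *Bax* was the next, at 173 and 133 normalised counts per kb. The intervals of *Mcl1* and *Bax* did not overlap in either library, while those of *Bax* and the next gene, *Bid*, overlapped in the library labelled Ezh2 KO.

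**Figure D1:**
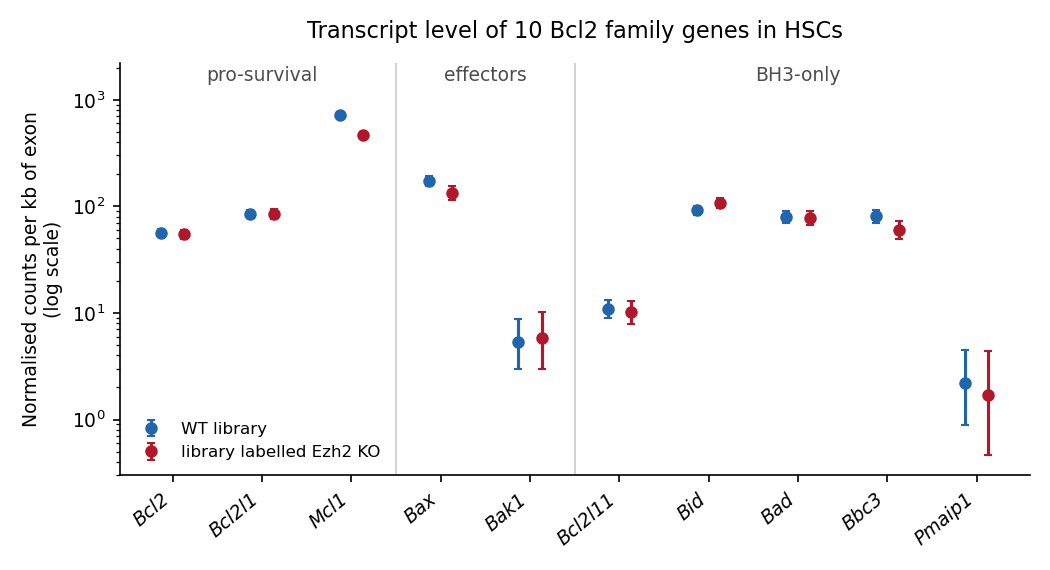
Normalised counts per kb of exon (log scale) of the 10 genes in the WT library (blue) and the library labelled Ezh2 KO (red), grouped by role; bars are exact 95% Poisson intervals of counting error. *Mcl1* lay at 718 and 470, and *Pmaip1* at 2.20 and 1.71.

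A middle group followed, with *Bid* (91.9 and 107), *Bcl2l1* (85.1 and 84.9), *Bbc3* (80.8 and 59.8), *Bad* (79.5 and 77.9) and *Bcl2* (56.1 and 54.7), WT first, all in normalised counts per kb. In WT the intervals of *Bid*, *Bcl2l1*, *Bbc3* and *Bad* overlapped, and that order was not resolved at this depth. Within this group *Bcl2*, with 9157 bases of exon and the second highest raw count of the 10 genes, had the lowest level per kb in both libraries, although its interval overlapped that of *Bbc3* in the library labelled Ezh2 KO. *Bcl2l11* (10.9 and 10.2), *Bak1* (5.35 and 5.81) and *Pmaip1* (2.20 and 1.71) were the lowest, in the same order in both libraries. The intervals of *Bak1* and *Pmaip1* overlapped in both, and those of *Bcl2l11* and *Bak1* in the library labelled Ezh2 KO. The 2 effectors were thus far apart, and *Bax* made up 97.0% of their summed level per kb in WT and 95.8% in the other library.

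The comparison of the 2 libraries asked which of these genes differed with the Ezh2 label. Ratios are log2 of the library labelled Ezh2 KO over WT, formed on normalised counts plus 1. *Mcl1*, a protein-coding gene on chromosome 3 (95658788 to 95663176, mm10), gave 2860 raw counts for WT and 1380 for the library labelled Ezh2 KO. After normalisation these were 2454.3 and 1608.1. The log2 ratio was -0.61 (-0.70 to -0.52), which is a level 1.53-fold lower (1.43 to 1.63), with an adjusted p = 3.66e-37 by the exact binomial test of the 2 counts. It was the gene with the largest difference among the 10 and the one that passed the test. The other 9 genes lay between -0.43 and 0.22 on the log2 scale.

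Gene calls required an adjusted value below 0.01. With a difference of at least 2-fold, 0 of the 10 genes were called, where 2.8% of the 12588 genes tested were called higher and 2.3% lower. With at least 1.5-fold, 1 of 10 was called lower and 0 higher, against 5.05% lower and 4.97% higher among all genes. With no fold threshold the same 1 gene was called lower and 0 higher, against 11.3% and 9.68%. The numbers of family members called were therefore near the background, and say little about the family as a group. An unadjusted p below 0.05 was found for 4 members, namely *Mcl1*, *Bax*, *Bbc3* and *Bid*, which is near the 40.8% of all genes tested. The median log2 ratio of the 10 genes was -0.07, while that of all genes tested was -0.003. Below 0 lay 8 of the 10 genes, and 6 under total-count scaling, where *Bcl2l1* and *Bad* changed sign, against 6344 of the 12588 genes tested.

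The 1.5-fold call of *Mcl1* lay near its threshold. It was lost under total-count scaling and when the deeper library was thinned, with log2 ratios of -0.58 and -0.57. With a coefficient of variation (CV) of 0.2 assumed between libraries, the edgeR exact test gave an adjusted p = 1 and an unadjusted p = 0.141. At high expression a 1.5-fold call was less common than in the whole table. The limit used, a mean of 1000 normalised counts or more, was set after the value of *Mcl1* was seen. Of the 950 genes there, 18 (1.89%) were called lower at 1.5-fold and 6 higher. The 18 include *Mcl1* itself and *Fos*, *Jun*, *Junb*, *Egr1*, *Ier2* and *Dusp1*. With no fold threshold calls were more common there, at 25.5% lower and 17.7% higher, against 11.3% and 9.68% of all genes tested.

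**Figure D2:**
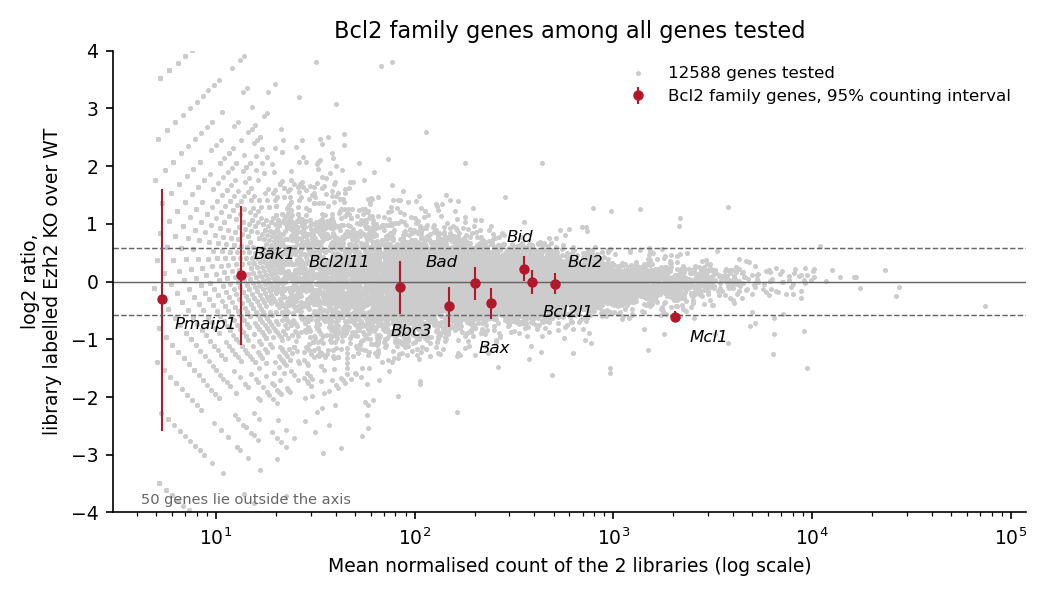
Log2 ratio of the library labelled Ezh2 KO over WT against the mean normalised count (log scale) for 12588 genes (grey) and the 10 Bcl2 family genes (red, bars are 95% intervals of counting error); dashed lines mark 1.5-fold and 50 genes lie outside the axis. *Mcl1*, at -0.61, is at the lower dashed line, and *Bak1* and *Pmaip1* have the widest intervals.

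To set the called gene beside the next most counted member, the 250 bases upstream of the RefSeq start of *Mcl1* and of *Bcl2* are shown (GRCm38.p6 windows from RefSeq, read 5′ to 3′ on the strand of the gene). The *Mcl1* window is chr3:95658471-95658720 on the plus strand and the *Bcl2* window chr1:106714291-106714540 on the minus strand. Capitals mark matches to the GC box GGGCGG or to the ETS site CCGGAAG on either strand.
Mcl1: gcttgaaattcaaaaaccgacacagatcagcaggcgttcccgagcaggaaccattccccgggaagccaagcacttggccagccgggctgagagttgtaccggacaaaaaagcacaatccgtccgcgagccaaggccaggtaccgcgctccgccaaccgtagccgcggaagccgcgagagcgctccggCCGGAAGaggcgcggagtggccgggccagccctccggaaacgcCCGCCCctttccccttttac
Bcl2: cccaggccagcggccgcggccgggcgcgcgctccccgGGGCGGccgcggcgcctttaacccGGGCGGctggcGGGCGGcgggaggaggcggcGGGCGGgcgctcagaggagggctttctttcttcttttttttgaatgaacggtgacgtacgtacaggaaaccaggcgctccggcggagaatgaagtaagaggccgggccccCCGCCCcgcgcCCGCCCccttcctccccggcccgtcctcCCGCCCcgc

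The *Mcl1* window held 1 GC box and 1 ETS site and the *Bcl2* window held 7 GC boxes and no ETS site. Other motifs searched on both strands were CCAAT, TGACGTCA (CRE), TGANTCA (AP-1), CACGTG (E-box) and TATAAA, and none of the 5 was found in either window. Windows were found for 9 of the 10 genes, 15 in all. A GC box was in 10 of those 15 windows, which belong to 7 of the 9 genes, and in 32.7% of the 32851 windows of all genes. The ETS site was in 2 and in 6.91%. G and C made up from 47.6% to 81.6% of the bases of the 15 windows, against a median of 52.4% over all windows. These shares were not compared at equal GC content. A match is a string of letters and does not show that a factor binds there.

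Of the pro-survival genes, *Bcl2* (chromosome 1, 106538178 to 106714274), the founding member of the family, had 599 and 430 counts, or 514.0 and 501.1 normalised counts, WT first. Its log2 ratio was -0.04 (-0.22 to 0.14). *Bcl2l1* (chromosome 2, 152780668 to 152831728), which encodes BCL-XL, had 455 and 334 counts, or 390.5 and 389.2 normalised counts, a log2 ratio of -0.005 (-0.21 to 0.20). Neither differed beyond counting error, and both intervals lay inside 1.5-fold in either direction.

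The proportion of the pro-survival genes differed between the libraries without any scaling between them. *Mcl1* provided 83.6% of the summed counts per kb of the 3 genes for WT and 77.1% for the library labelled Ezh2 KO. *Bcl2l1* provided 9.91% and 13.9%, and *Bcl2* 6.53% and 8.97%. In raw counts *Mcl1* made up 73.1% (exact interval 71.7% to 74.5%) and 64.4% (62.3% to 66.4%) of the 3 genes. *Mcl1* therefore remained the largest part in both libraries, with a smaller share in the second. The ratio of *Mcl1* to *Bcl2* counts was 4.77 for WT and 3.21 for the other library, lower by a factor of 0.672 (0.583 to 0.775), and that of *Mcl1* to *Bcl2l1* was lower by a factor of 0.657 (0.561 to 0.770). The ratio of *Bcl2l1* to *Bcl2* counts was 0.760 and 0.777, a factor of 1.02 (0.844 to 1.24).

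**Figure D3:**
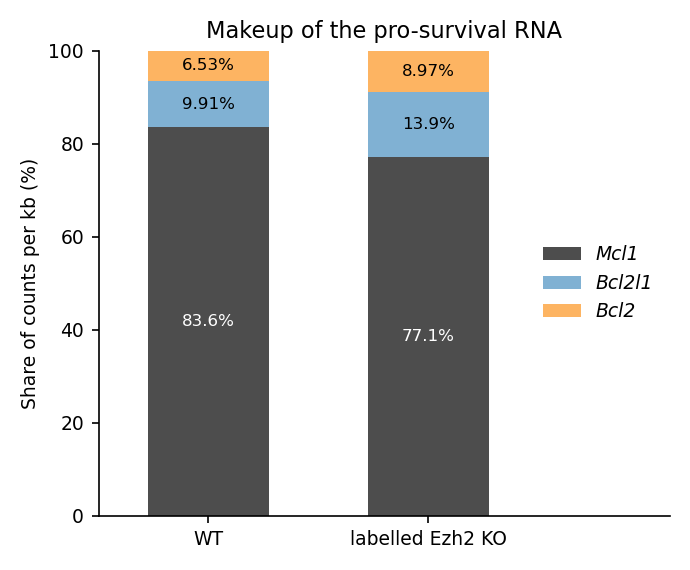
Share of each of the 3 pro-survival genes in their summed counts per kb of exon (%), in the WT library and the library labelled Ezh2 KO. The *Mcl1* share was 83.6% in WT and 77.1% in the other library.

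Neither effector passed the test. *Bax* (chromosome 7, 45461697 to 45466898), a pore-forming effector that p53 can induce, had 318 and 180 counts, or 272.9 and 209.8 normalised counts. Its log2 ratio was -0.38 (-0.65 to -0.11), with an exact binomial adjusted p = 0.0200, which missed the threshold. *Bak1* (chromosome 17, 27019810 to 27029009), the second effector, had 15 and 12 counts, with a log2 ratio of 0.11 (-1.11 to 1.31). Changes of up to 2-fold in *Bak1* were not detectable at this depth. The ratio of *Bax* to *Bcl2* is often used as a measure of the tendency to apoptosis. In raw counts, not corrected for length, it was 0.531 for WT and 0.419 for the other library, a factor of 0.789 (0.628 to 0.989). Per kb of exon it was 3.08 for WT and 2.43 for the other library, so *Bax* had the higher level in both. Summed per kb, the effectors had 0.208 times the level of the 3 pro-survival genes for WT and 0.228 times for the library labelled Ezh2 KO.

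*Bid* (chromosome 6, 120891930 to 120916853) encodes a BH3-only protein that is cut by a caspase downstream of death receptors. Among BH3-only genes *Bid* had the highest level per kb, though in WT its interval overlapped those of *Bbc3* and *Bad*. It had 380 and 326 counts, or 326.1 and 379.9 normalised counts, a log2 ratio of 0.22 (0.002 to 0.44) with an exact binomial adjusted p = 0.110. *Bad* (chromosome 19, 6941861 to 6951899), which is held inactive by growth factor signalling, had 237 and 171 counts, or 203.4 and 199.3 normalised counts, a log2 ratio of -0.03 (-0.32 to 0.26). *Bid* was the one abundant member with a higher value in the library labelled Ezh2 KO, and *Bad* was nearly equal in both.

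*Bcl2l11* (chromosome 2, 128126038 to 128162547) encodes BIM, which mediates death on loss of cytokines. It had 102 and 70 counts, or 87.5 and 81.6 normalised counts, a log2 ratio of -0.10 (-0.56 to 0.35). *Bbc3* (chromosome 7, 16308393 to 16318205) encodes PUMA, a p53 target, and had 200 and 109 counts, or 171.6 and 127.0 normalised counts. Its log2 ratio was -0.43 (-0.78 to -0.09), with an exact binomial adjusted p = 0.0387. *Pmaip1* (chromosome 18, 66458533 to 66465565) encodes NOXA, which binds MCL1, and had 7 and 4 counts, a log2 ratio of -0.31 (-2.59 to 1.61). *Bbc3* thus had a lower value without passing the test, and *Pmaip1* was too sparse to compare. Summed over the 5 genes, BH3-only RNA came to 794.6 and 792.4 normalised counts.

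The precision reached differed among the 10 genes. The interval lay within 1.5-fold in both directions for 5 genes (*Bcl2*, *Bcl2l1*, *Bcl2l11*, *Bid* and *Bad*) and within 2-fold for 8. For *Bak1* and *Pmaip1* it was wider than 2-fold. The exons of *Bid* share 628 bases with *Bcl2l13* on the opposite strand, those of *Bcl2* share 558 with an antisense gene, and those of *Bad* share 524 with *Gpr137*. *Bak1* and *Bax* also overlap other genes, *Ggnbp1* on the opposite strand and *Gm45808* on the same strand. The use of strand in counting is not clear from the sources, so counts of these 5 genes are less certain than those of *Mcl1*, for which no such overlap is annotated.

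Marker genes of other cell types differed between the libraries and are given beside these values. Whether their RNA came from other cells or from the HSCs was not tested. Neutrophil markers (12 genes) summed to 10533 normalised counts for WT and 19405 for the library labelled Ezh2 KO, from 5.15 to 2187 and from 5.83 to 5385 a gene. On the log2 scale 9 of the 12 were above 0. At 1.5-fold 7 were called higher and 1, *Elane*, lower (log2 ratio -0.76), while *Prtn3* and *Ctsg* were at -0.07 and -0.01. Eosinophil markers (9 genes) summed to 10.3 and 3787, with 6 at 0 counts in WT. Of the second sum *Prg2* made up 2366 and *Epx* 1165, both at 0 in WT. *Il5ra*, at 2 and 8 counts, was not called, and *Siglecf* and *Ccr3*, each at 5 and 4, were not tested. Erythroid markers (8 genes) summed to 8854 and 11062, of which *Car2* made up 8474 and 10010, with 4 called higher at 2-fold. B lymphoid markers (10 genes) summed to 239.4 and 490.6, of which *Cd79b* made up 215.4 and 266.9, with 5 called higher. T and NK markers (7 genes) summed to 99.5 and 179.5, of which *Nkg7* made up 99.5 and 127.0. *Cd3g*, at 0 and 9 counts, and *Il2rb*, at 0 and 34, were called higher, and *Cd3e* and *Cd3d* were at 0 in both libraries. Monocyte markers (8 genes) summed to 2704 and 3171, of which *Lyz2* made up 2444 and 2927, and their median log2 ratio was -0.12 with *F13a1* called lower. Megakaryocyte markers (6 genes) summed to 2783 and 1445, of which *Vwf* made up 1439 and 478.9, and 3 were called lower at 1.5-fold while 3 lay above 0. Rapidly induced genes (*Fos*, *Fosb*, *Jun*, *Junb*, *Egr1*, *Ier2* and *Dusp1*) summed to 51565 and 25694, with 7 of 7 called lower at 1.5-fold; this list was chosen after its values were seen. The part of any of these in the lower *Mcl1* level was not tested. In bulk RNA, fewer cells with *Mcl1* RNA and less of it per cell cannot be told apart.

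Genes around the Bcl2 family were then examined through a list of 57 genes of the apoptosis pathway. Of 47 genes tested, 1 was called higher and 3 lower at 1.5-fold, near the 4.97% and 5.05% of all genes, and 0 at 2-fold, against 2.8% and 2.3%. With no fold threshold 5 were called higher and 4 lower, against the 9.68% and 11.3% of all genes given above. The median log2 ratio was -0.03, and 18 genes had an unadjusted p below 0.05, against 40.8% of all genes. The counts are thus no result about the pathway as a group. The other 10 genes were not tested for want of counts, 7 of them with 0 counts in both libraries (*Bcl2l10*, *Bcl2a1c*, *Bcl2a1d*, *Bik*, *Hrk*, *Bcl2l15* and *Trp73*). The *Bcl2a1* genes are near-identical copies, so their counts are uncertain.

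Of the 4 genes called at 1.5-fold, 3 were inhibitors of apoptosis and 1 acts in turnover of the MCL1 protein, and 0 of these 4 calls remained with a CV of 0.2 assumed between libraries. Of 5 inhibitors of apoptosis, which block caspases or signal from death receptors, *Xiap* had 155 and 71 counts (log2 ratio -0.68, -1.11 to -0.27) and *Birc3* 248 and 117 counts (-0.64, -0.97 to -0.32), and both were called lower. *Birc5*, which encodes survivin and also acts in mitosis, had 103 and 127 counts (0.74, 0.36 to 1.13) and was called higher. *Birc2*, with the highest mean normalised count of the group, had 282 and 237 counts and a log2 ratio of 0.19. The inhibitors thus did not move one way.

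Of 4 genes for turnover of the MCL1 protein, *Usp9x*, which encodes an enzyme that removes ubiquitin from MCL1, had 626 and 287 counts and was called lower, with a log2 ratio of -0.68 (-0.89 to -0.48). *Xiap* and *Usp9x* both lie on the X chromosome, and the part of the sex difference between the libraries was not tested. The 412 X-linked genes tested had a median log2 ratio of -0.03, and the X-linked *Huwe1* and *Aifm1* had -0.16 and 0.11.

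Below 1.5-fold, 5 more genes passed the test and are named after their values were seen. *Casp6*, which encodes a caspase, had 227 and 231 counts and a log2 ratio of 0.46 (0.20 to 0.74). *Cflar*, an inhibitor of signalling from death receptors, was at 0.40, *Mdm4*, an inhibitor of p53, at 0.49 and *Foxo1* at 0.29. *Btrc*, a ubiquitin ligase subunit, was at -0.50. The first 4 rose and *Btrc* fell between these 2 libraries.

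Elsewhere in the pathway 0 genes were called under any of the 3 rules among the apoptosome and mitochondrial release group (9 tested) and the other BH3 family genes (7 tested). The gene with the highest mean normalised count, not corrected for length, of each of these and the other roles without a 1.5-fold call was also examined. The log2 ratio was 0.02 for *Vdac3*, a mitochondrial channel (-0.20 for *Vdac1*, which had the higher level per kb and an exact binomial adjusted p = 0.0133), and 0.13 for *Bnip3l*, which also acts in removal of mitochondria. It was -0.07 for *Casp2* (-0.10 for *Casp8*, higher per kb), 0.12 for the receptor *Tnfrsf1a*, and 0.05 (-0.05 to 0.14) for *Trp53*, which encodes p53. *Bcl2l2* (20 and 14 counts) and *Bok* (23 and 11 counts) had log2 ratios of -0.07 and -0.59, with intervals wider than 2-fold on at least 1 side.

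**Figure D4:**
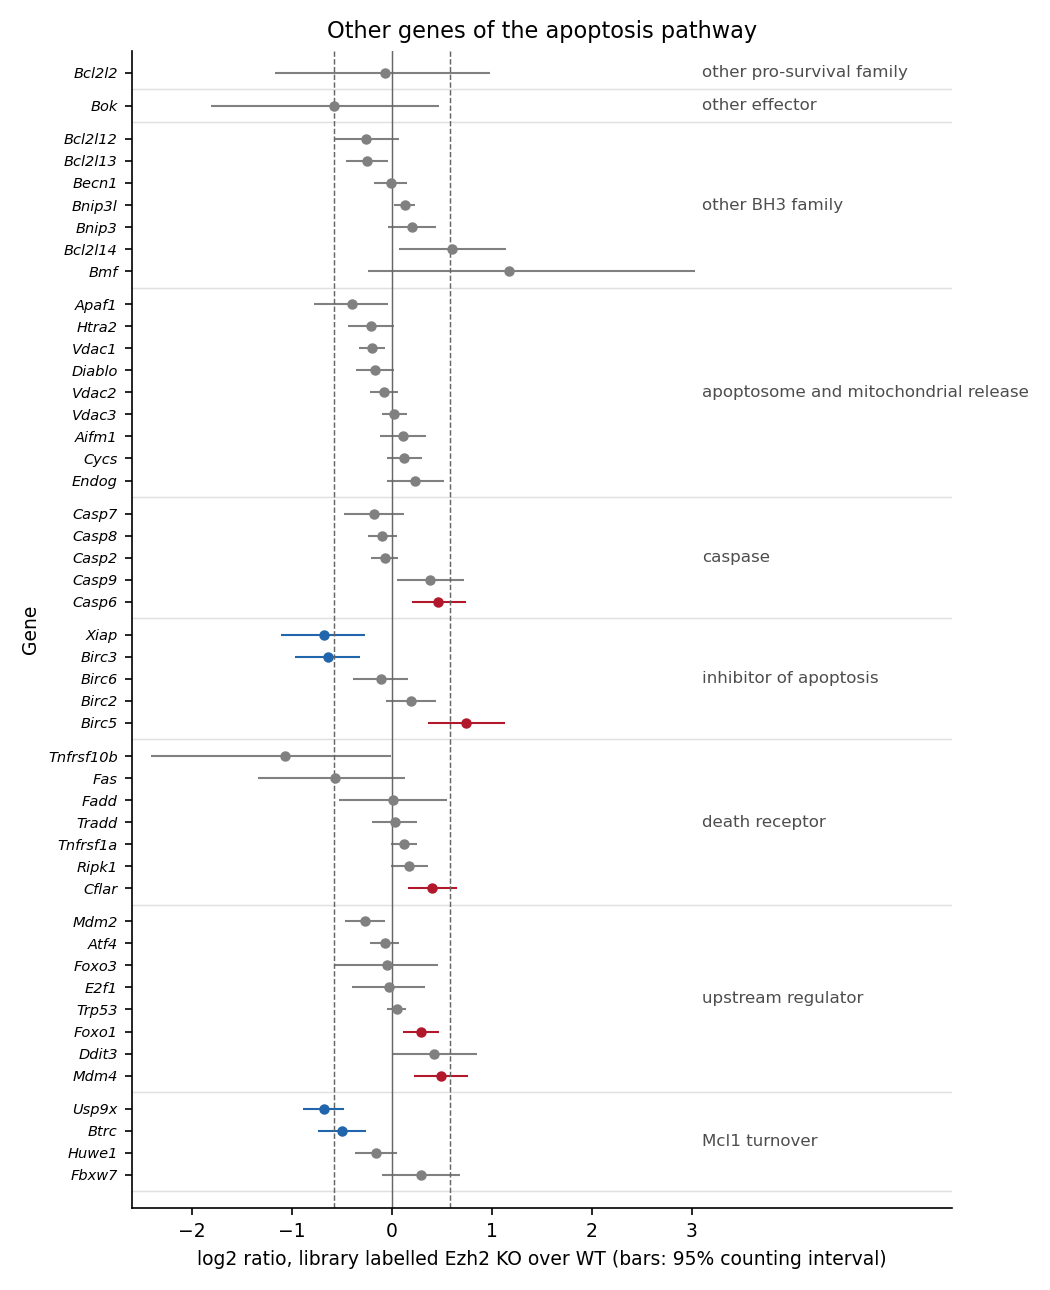
Log2 ratio of the library labelled Ezh2 KO over WT for the 47 tested genes of the apoptosis pathway outside the 10 members, by role; bars are 95% intervals of counting error, dashed lines mark 1.5-fold, and red or blue points passed the exact test at an adjusted value below 0.01 with no fold threshold. The 5 red points are higher and the 4 blue points lower in the library labelled Ezh2 KO.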

How the data were processed

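Gene-level RNA-seq was analysed in 1 WT library and 1 library labelled Ezh2 KO. The authors deposited raw read counts per gene symbol, without normalisation. According to the submitters' processing notes and the methods, single reads had been mapped to mm10 using TopHat2 2.0.13 and Bowtie2 2.1.0. StringTie was named as the counter, but the 5 closing entries of each file carry htseq-count names, so the counter and its strand setting are not clear; these entries (56.1% and 56.9% of all counts) were kept out of totals and tests.

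Counts were divided by DESeq2 1.42.0 median-of-ratios size factors (1.17 and 0.858). With 1 library per group no dispersion can be estimated, so no edgeR quasi-likelihood or DESeq2 model was fitted. Genes with a mean of at least 1 CPM (12588) were given an exact two-sided binomial test of both counts, the expected share following from the size factors, and p-values were adjusted by Benjamini-Hochberg over these genes. Genes were called at an adjusted value below 0.01 and 2-fold, 1.5-fold or any difference. Intervals on ratios are Clopper-Pearson intervals of that share, at 95%. Exon lengths (union of exons) and positions came from GENCODE M21. The procedure was run on simulated counts with counting error only. These held no other variation between libraries, so the run does not show how the calls hold up to it. Named genes were the 10 members, *Ezh2*, pathway genes called at 1.5-fold and the gene of highest mean normalised count in each role; exceptions are stated. A gene of the pathway list is not reported here and is left out of its counts. Members and lists were chosen with earlier results of these data known. Tools were edgeR 4.0.16, R 4.3.3, Python 3.11.15, scipy 1.17.1 and matplotlib 3.10.9.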

Additional observations from a re-analysis of the deposited data

How the results depend on the processing

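No paired analysis was possible because the labels pair no samples and there is 1 library on each side. At 2-fold, 0 members and 0 pathway genes were called under every alternative. At 1.5-fold, 1 member (*Mcl1*) and 4 pathway genes were called. The member count became 0 under total-count scaling and with the deeper library thinned, since the log2 ratio of *Mcl1* then fell short of 1.5-fold. Both counts became 0 when edgeR's exact test was given a CV of 0.2 or 0.4 between libraries, which are assumed, not measured. TMM scaling, both filters on low counts and an adjusted value below 0.05 left both counts as they were. The median log2 ratio of the members ranged from -0.14 (thinned) to -0.04 (total counts). Across the scaling, thinning, filter and pseudocount alternatives each member's log2 ratio stayed inside its counting interval. With the length of the longest transcript in place of the union of exons, the *Mcl1* share of the pro-survival level was 76.3% (WT) and 68.0% (labelled Ezh2 KO), and the ratio of effectors to pro-survival genes was 0.269 and 0.284. With no length correction these were 73.1% and 64.4%, and 0.0851 and 0.0896. The *Mcl1* share was lower in the library labelled Ezh2 KO under each length. No choice of length could change that direction, since both *Mcl1* count ratios were lower there and lengths cancel between the libraries. Depth limits *Bak1* and *Pmaip1* most.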
